A study of Mus musculus with 6 samples.

Results

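The genes of proximal B cell receptor (BCR) signaling were compared in follicular B cells with and without myosin IIa. They are 9 genes, namely Cd79a and Cd79b of the receptor complex, the kinase genes Lyn, Syk and Btk, the adaptor gene Blnk, the phospholipase gene Plcg2 and the phosphatase genes Ptpn6 and Ptprc. They were picked by name from 20458 gene names in the authors' deposited table and hold 13 of its 25017 entries, an entry being a group of transcripts with the same coding sequence. The table lists all 9 genes, with all 13 entries above 0 in both genotypes.

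RNA was sequenced from follicular B cells, gated as B220+, AA4.1-, CD23+ and CD21lo, of 3 CD23Cre+Myh9wt/fl (haploinsufficient) and 3 CD23Cre+Myh9fl/fl (deficient) mice of strain C57BL/6. Cre is driven by the promoter of Fcer2, which encodes CD23, and deletes floxed exon 3 of Myh9, on 1 allele in wt/fl cells and on both in fl/fl cells. Both groups carry Cre and at least 1 floxed allele, so the control is haploinsufficient for myosin IIa and no Myh9wt/wt or Cre-negative group was sequenced. The study's methods give age ranges for its ex vivo and in vitro work as a whole, and the labels give no age for the sequenced mice. The authors pooled the 3 samples of a genotype into 1 value per entry, in fragments scaled to transcript length and to mapped fragments (FPKM). There is therefore no value per mouse and no spread between mice, the authors' own test columns were not used, and no test between genotypes was made here. The depth per sample is unknown. Differences are descriptions of 2 pooled values, given as a log2 ratio of fl/fl over wt/fl after 1 was added to each FPKM.

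The BCR is a membrane immunoglobulin that binds antigen, joined to a heterodimer of Ig-alpha (Cd79a) and Ig-beta (Cd79b), which carries the signal into the cell. Each of these chains has a tyrosine motif, the ITAM, that Src-family kinases such as Lyn phosphorylate and to which Syk then binds. Syk phosphorylates the adaptor Blnk, on which Btk and the phospholipase Plcg2 assemble to start calcium release and diacylglycerol signaling. The phosphatase CD45 (Ptprc) keeps Src-family kinases ready by removing an inhibitory phosphate, and SHP-1 (Ptpn6) is recruited to inhibitory receptors and shuts the pathway off.

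The coding stretches of the ITAMs are shown because they are what makes Cd79a and Cd79b the signaling chains of the receptor. They were read from the GENCODE M21 transcripts on GRCm38, with the codons of the paired tyrosines in capitals.
Cd79a ITAM (chr7:24901296-24901469, plus strand, across exons 4 and 5): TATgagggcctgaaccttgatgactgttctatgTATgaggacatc
Cd79b ITAM (chr11:106311867-106312012, minus strand, across exons 5 and 6): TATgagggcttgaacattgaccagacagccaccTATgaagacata
The stretches are 45 bases each and share 31 of them. Of the 89 pathway genes with a coding sequence in that annotation, members included, Cd79a and Cd79b were the 2 in which the ITAM search found a match.

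Of the 9 genes, 3 have more than 1 entry, namely Ptprc, Lyn and Ptpn6. The stretches by which the coding sequences of Ptprc and Ptpn6 differ are shown because each of these genes has an entry that was at least 1.5-fold apart between the genotypes. For each of the 9 genes the number of entries equals the number of distinct coding sequences that GENCODE M21 links to curated RefSeq transcripts, 13 in all. The deposited table does not say which entry holds which coding sequence, so no entry is given an isoform name here.
Ptprc has 3 coding sequences of 3879, 3462 and 3390 bases, and 4 variable exons set them apart (GRCm38, minus strand), together 489 bases or 12.6% of the longest. The first 3 of these exons are in the longest coding sequence alone, and exon 7 is missing from the shortest.
Ptprc exon 4 (chr1:138122456-138122584): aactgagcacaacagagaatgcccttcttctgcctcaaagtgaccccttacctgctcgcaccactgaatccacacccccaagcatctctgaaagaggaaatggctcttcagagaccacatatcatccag
Ptprc exon 5 (chr1:138120020-138120166): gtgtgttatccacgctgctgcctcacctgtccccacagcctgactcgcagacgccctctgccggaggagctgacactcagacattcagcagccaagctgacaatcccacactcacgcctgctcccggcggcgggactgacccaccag
Ptprc exon 6 (chr1:138117754-138117894): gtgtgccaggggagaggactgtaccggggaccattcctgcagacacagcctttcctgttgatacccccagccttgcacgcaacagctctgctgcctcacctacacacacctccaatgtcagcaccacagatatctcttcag
Ptprc exon 7 (chr1:138116954-138117025): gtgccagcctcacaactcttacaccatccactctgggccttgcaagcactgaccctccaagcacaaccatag
Lyn has 2 coding sequences of 1536 and 1473 bases.
Ptpn6 has 2 coding sequences of 1791 and 1785 bases, which differ only in the first coding exon (minus strand, start codon in capitals).
Ptpn6, longer sequence (chr6:124738499-124738512): ATGttgtcccgcgg
Ptpn6, shorter sequence (chr6:124732946-124732953): ATGgtgag

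Myh9 was the check of the labels, though fragments from its other exons still count toward its level. It stood at 50.6 FPKM in haploinsufficient and 21.1 FPKM in deficient cells, 41.7% of the control level. The sorted cells carried B cell markers. Of the 9 markers listed, which summed to 5203 FPKM in haploinsufficient and 5484 FPKM in deficient cells, 2 are Cd79a and Cd79b themselves. The 7 others summed to 2467 and 2630 FPKM, and none of them was at 0. Genes of the sort gate, namely Fcer2a (439 FPKM, then 588 FPKM in deficient cells), Cr2, which encodes CD21, and Ptprc, which encodes B220, cannot be read as free of the gate. Neutrophil markers moved with genotype. All 9 averaging 1 FPKM or more were lower in fl/fl, 7 of them by 1.5-fold or more. Cxcr2 (5.99 and 4.96 FPKM in wt/fl and fl/fl) and Csf3r (2.32 and 1.51 FPKM) were lower by less than that. The 11 markers with values summed to 385 FPKM in haploinsufficient and 73.0 FPKM in deficient cells, led by S100a9 (175 and 34.5) and S100a8 (145 and 25.8). The granule genes Mpo (0.092 and 0 FPKM) and Elane (0.12 and 0 FPKM) were near or at 0 in both genotypes. Summed levels of the other marker lists were, in wt/fl and fl/fl, 92.1 and 62.7 FPKM for macrophages and monocytes (led by Lyz2 and Cd68), 214 and 201 FPKM for T cells (led by Cd2, which B cells also express, and Lck), 29.7 and 20.2 FPKM for NK cells (Gzma and Nkg7), 4.59 and 3.06 FPKM for dendritic cells (Cd209a and Zbtb46), 55.5 and 7.72 FPKM for erythroid cells (Beta-s and Alas2), 1.77 and 2.52 FPKM for platelets (Ppbp and Pf4) and 118 and 107 FPKM for plasma cells (Irf4 and Xbp1, which B cells also express). In these lists no gene averaging 1 FPKM or more was 1.5-fold higher in fl/fl. Those 1.5-fold lower were Lyz2 (72.6 and 44.9 FPKM), Nkg7, Beta-s and 2 plasma cell markers. The latter were Igj, the immunoglobulin J chain (5.40 and 0.617 FPKM), and Sdc1, which encodes CD138 (2.30 and 1.13 FPKM). Lyz2 held most of the macrophage and monocyte sum. Of the 6 genes of that list averaging 1 FPKM or more, 4 were lower in fl/fl and 2 were higher. In RNA of bulk sorted cells, fewer cells of a type and less RNA per cell cannot be told apart.

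None of the 9 genes was 1.5-fold apart between the genotypes when its entries were summed. The background for that count was 2.32% of the 9879 genes averaging 1 FPKM or more, and 1.02% of the 5959 genes averaging 10 FPKM or more, which is the range in which all 9 genes lie. The log2 ratio ran from −0.41 for Syk to 0.30 for Ptprc, with 5 genes above 0 and 4 below. Within 10% of their wt/fl level were 7 of the 9 genes, of which Lyn lay furthest from it. Most genes averaging 10 FPKM or more were as close, as 33.1% had a larger absolute log2 ratio than Lyn. Syk and Ptprc, 2 of the 9, lay outside the range from the 5th to the 95th percentile of that background (−0.26 to 0.26). The 9 genes had a median log2 ratio of 0.023, beside 0.013 for the genes averaging 10 FPKM or more. Summed, the 9 genes made up 0.702% of all FPKM in haploinsufficient and 0.734% in deficient cells.

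The levels of the 9 genes spanned from Plcg2 and Btk at the bottom to Cd79b at the top, and their order was the same in both genotypes except that Btk and Plcg2 changed places. Since no spread between mice can be given, which neighbors in that order differ cannot be told. In wt/fl the closest neighbors were Blnk and Lyn, at 175.6 and 175.3 FPKM.

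**Figure D1:**
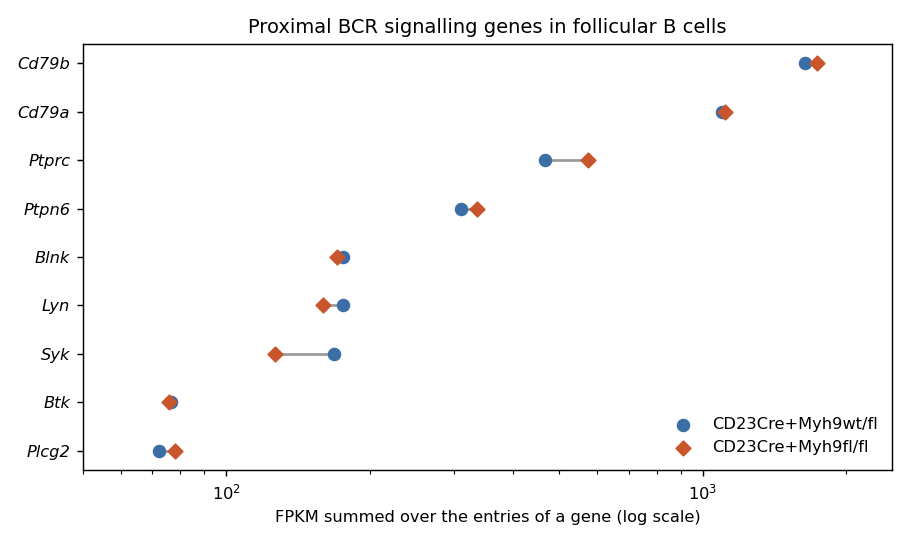
FPKM of each gene summed over its entries, on a log axis, with circles for CD23Cre+Myh9wt/fl and diamonds for CD23Cre+Myh9fl/fl follicular B cells, each the authors' value pooled over 3 samples, so no error bars can be drawn. The pairs nearly overlap except for Syk (169 and 127 FPKM) and Ptprc (467 and 575 FPKM).

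The receptor chains were the most abundant of the 9 genes. Cd79b (chromosome 11 from 106172654 to 106175843 in the table's older build, mm9) stood at 1638 FPKM in haploinsufficient and 1739 FPKM in deficient cells, a log2 ratio of 0.086. Cd79a (chromosome 7 from 25682529 to 25687216) stood at 1098 FPKM in haploinsufficient and 1115 FPKM in deficient cells, a log2 ratio of 0.023. Among all gene names, Cd79b ranked 61st in wt/fl and 59th in fl/fl by FPKM, and Cd79a ranked 82nd and 85th. Per length, Cd79b mRNA was present at 1.49 times the level of Cd79a in wt/fl and 1.56 times in fl/fl, although the proteins pair as a heterodimer. Thus, mRNA of both receptor chains stayed within 10% of the control level, and their ratio was nearly the same in both genotypes.

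Of the kinases, Syk was the member furthest below its control level. Syk (chromosome 13 from 52678805 to 52744161, mm9), which binds the phosphorylated ITAMs, stood at 169 FPKM in haploinsufficient and 127 FPKM in deficient cells, 75.2% of the control level, a log2 ratio of −0.41. Of the genes averaging 10 FPKM or more, 1.58% (94 of 5959) had a lower ratio. Of the 9 genes, Syk alone differed by 25% or more of its lower value, as did 5.52% of the genes averaging 10 FPKM or more and 10.1% of those averaging 1 FPKM or more. Syk has 1 entry, so this value does not depend on how fragments were divided among coding sequences. Neutrophil markers were lower in fl/fl as given above (385 and 73.0 FPKM summed). The part of neutrophil RNA in the values of Syk or of any other of the 9 genes was not tested.

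Lyn (chromosome 4 from 3605267 to 3718759, mm9), the Src-family kinase that both starts and restrains BCR signaling, stood at 175 FPKM in haploinsufficient and 159 FPKM in deficient cells summed over its 2 entries, a log2 ratio of −0.14. The more abundant Lyn entry was at 96.2 and 82.1 FPKM in wt/fl and fl/fl, and the other at 79.2 and 77.1 FPKM. The share of the more abundant entry was 54.8% in wt/fl and 51.6% in fl/fl, so the estimated levels of the 2 entries were similar in both genotypes. Btk (chromosome X from 131076879 to 131117679), the Tec-family kinase that activates Plcg2, stood at 76.4 FPKM in haploinsufficient and 75.8 FPKM in deficient cells, a log2 ratio of −0.012, the smallest difference of the 9 genes. Relative to Lyn, the level of Syk was 0.961 in wt/fl and 0.796 in fl/fl, because Syk was lower by more than Lyn was.

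The adaptor and the enzyme downstream of Syk differed little. Blnk (chromosome 19 from 41003416 to 41069025, mm9), the scaffold phosphorylated by Syk, stood at 176 FPKM in haploinsufficient and 170 FPKM in deficient cells, a log2 ratio of −0.043. Plcg2 (chromosome 8 from 120022190 to 120159042), which cleaves a membrane phosphoinositide into the messengers for calcium release and protein kinase C, stood at 72.1 FPKM in haploinsufficient and 77.9 FPKM in deficient cells, a log2 ratio of 0.11. Syk stood at 0.960 times Blnk in wt/fl and at 0.743 times in fl/fl, whereas Btk over Plcg2 was 1.06 in haploinsufficient and 0.973 in deficient cells.

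**Figure D2:**
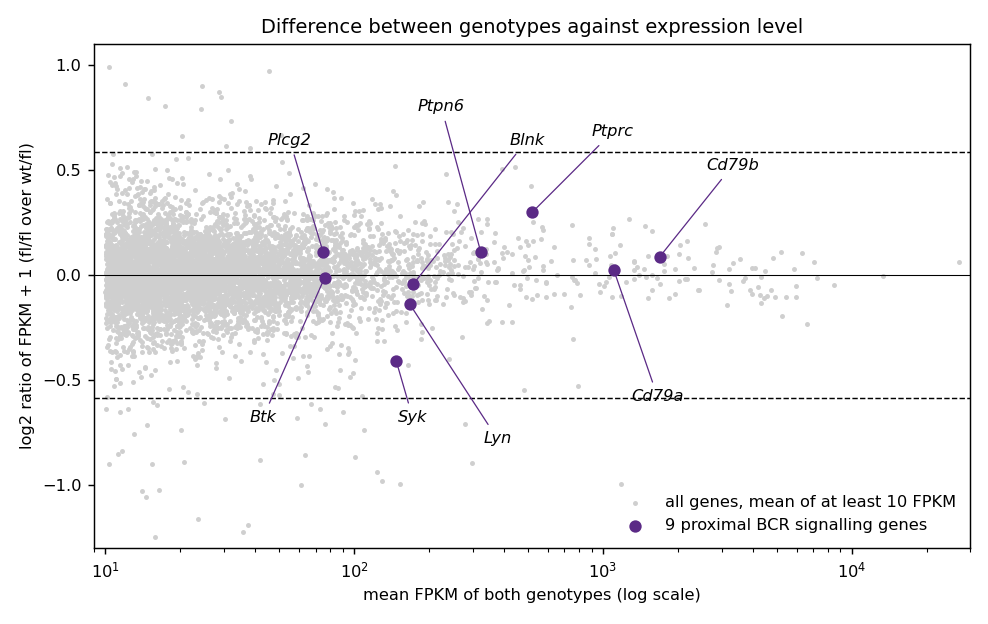
Log2 ratio of FPKM + 1 (fl/fl over wt/fl) against the mean FPKM of both genotypes (log axis) for the 5959 genes averaging 10 FPKM or more (gray) and the 9 proximal BCR signaling genes (purple), with dashed lines at 1.5-fold and 8 genes below the axis not drawn. All 9 genes lie between the lines, with Syk (−0.41) lowest and Ptprc (0.30) highest among them.

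Of the phosphatases, Ptprc was the member furthest above its control level. Ptprc (chromosome 1 from 139959435 to 140071882, mm9) stood at 467 FPKM in haploinsufficient and 575 FPKM in deficient cells summed over its 3 entries, 123% of the control level, a log2 ratio of 0.30. Of the genes averaging 10 FPKM or more, 3.36% had a higher ratio. The cells had been sorted on B220, the form of CD45 that carries the variable exons. Ptpn6 (chromosome 6 from 124670735 to 124688727) stood at 311 FPKM in haploinsufficient and 335 FPKM in deficient cells summed over its 2 entries, a log2 ratio of 0.11. As Syk and Lyn were lower and both phosphatases were higher, any ratio of these kinases to the phosphatases had to be lower. Syk over Ptpn6 was 0.542 in haploinsufficient and 0.378 in deficient cells. Lyn over Ptprc was 0.376 and 0.277, and Lyn over Ptpn6 was 0.564 and 0.475. Ratios between members were not planned and add nothing to the values of the single genes.

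The 3 entries of Ptprc did not move alike. Fragments from exons that entries share are divided among them by estimation, so the level of an entry is less direct than the sum. The most abundant stood at 329 FPKM in haploinsufficient and 405 FPKM in deficient cells, a log2 ratio of 0.30 and a share of 70.6% and 70.4% of the Ptprc sum. The next was lower in fl/fl, at 102 and 77.7 FPKM (log2 ratio −0.38), and its share went from 21.8% to 13.5%. The least abundant was higher in fl/fl, at 35.6 and 92.3 FPKM (log2 ratio 1.35), and its share went from 7.64% to 16.1%. Hence the least abundant entry passed the next one in fl/fl cells, and of the 108 FPKM by which the Ptprc sum was higher, the most abundant entry held 75.4 FPKM and the least abundant 56.7 FPKM, offset by −24.0 FPKM of the other.

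The second entry of Ptpn6 stood at 0.467 FPKM in haploinsufficient and 3.74 FPKM in deficient cells, 0.150% and 1.12% of the Ptpn6 sum, while the main entry was at 310 and 331 FPKM. Nearly all Ptpn6 signal was therefore assigned to 1 entry in both genotypes. The coding sequences of Ptpn6 differ only in the short first coding exons shown above. If its entries hold these sequences, few coding bases separate them.

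Of the 13 entries, 2 were at least 1.5-fold apart, the least abundant ones of Ptprc and Ptpn6, both higher in fl/fl. These were 2.59-fold and 8.01-fold apart, and the share of entries that far apart was not counted. The Ptpn6 entry averaged 1 FPKM or more only through its fl/fl value. Differences of at least 1.5-fold were more frequent where a gene has several entries. Of the 3329 entries of such genes averaging 1 FPKM or more, 7.87% were 1.5-fold higher in fl/fl and 15.5% were 1.5-fold apart in either direction, against 6.23% of all 11434 entries. Likewise, the largest share difference within a gene was 8.42 percentage points in Ptprc, 3.27 in Lyn and 0.966 in Ptpn6, with a median of 4.59 over the 1143 genes with several entries that averaged 10 FPKM or more. In 47.2% of these genes an entry share differed by at least 5 percentage points, a cut chosen after the data were seen. In 29.0% of them the largest difference exceeded that of Ptprc. By share, the entry shifts of Ptprc are therefore within what many genes show.

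**Figure D3:**
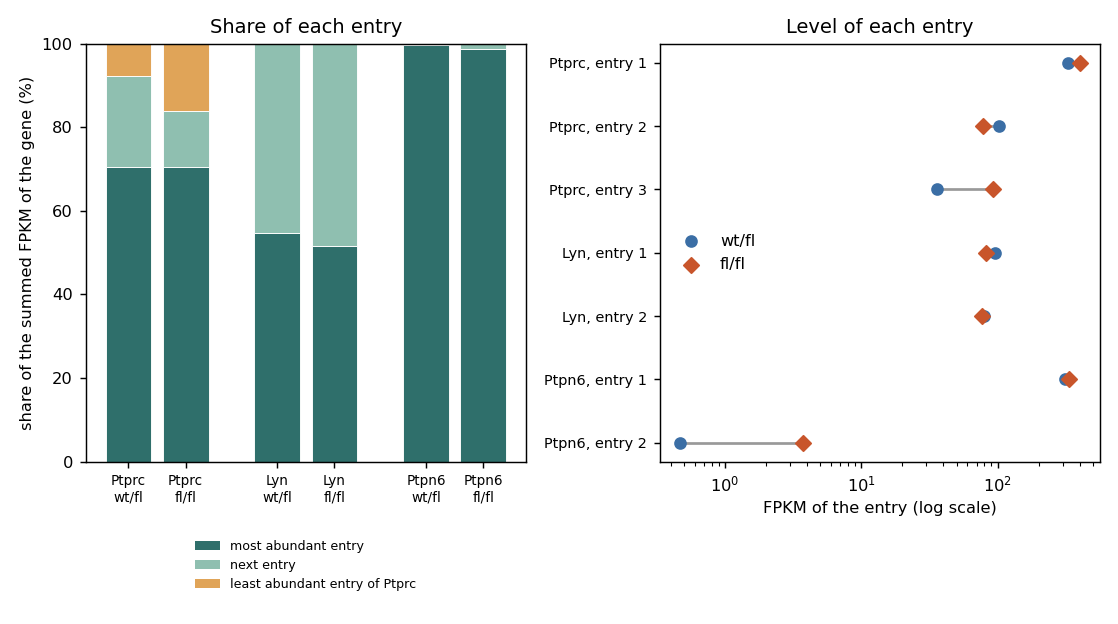
Left, stacked bars of the share (%) of each entry in the summed FPKM of Ptprc, Lyn and Ptpn6 in wt/fl and fl/fl cells. Right, FPKM of each entry on a log axis, with entry 1 the most abundant, circles for wt/fl and diamonds for fl/fl, where the least abundant entries of Ptprc (35.6 and 92.3 FPKM) and Ptpn6 (0.467 and 3.74 FPKM) are furthest apart.

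Around these 9 genes, 7 further lists of the BCR pathway held 80 genes, of which 79 are in the table and 73 averaged 1 FPKM or more. Of the 73, 1 was at least 1.5-fold higher in fl/fl, 1 was at least 1.5-fold lower, and the median log2 ratio was 0.0052. Of all genes averaging 1 FPKM or more, 0.79% were that much higher and 1.53% that much lower. The 2.74% of the 73 genes that were 1.5-fold apart stand beside the 2.32% of all genes given above. The lower gene was Ifitm1, listed as a partner of CD81, at 4.01 and 1.34 FPKM in wt/fl and fl/fl, near the bottom of the expressed range.

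The activating coreceptor genes lay close to their control levels apart from Ifitm1, 1 of 4. The complement receptor gene Cr2 stood at 177 FPKM in haploinsufficient and 198 FPKM in deficient cells, and the tetraspanin gene Cd81 at 173 and 188 FPKM. Cr2 was part of the sort gate.

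Among inhibitory receptors, none of the 6 genes averaging 1 FPKM or more was 1.5-fold apart (median log2 ratio 0.014). Cd22, which recruits SHP-1 to the BCR, stood at 292 FPKM in haploinsufficient and 316 FPKM in deficient cells, Cd72 at 282 and 289 FPKM, and Siglecg at 172 and 171 FPKM. Fcgr2b, the inhibitory Fc receptor of B cells, was the furthest from 0 at 75.5 and 54.6 FPKM (log2 ratio −0.46), and was singled out after its values were seen.

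The 9 other Src-family, Tec-family and regulatory kinase genes with that mean had a median log2 ratio of 0.0029. Csk, the kinase that places the inhibitory phosphate that CD45 removes, was at 177 and 168 FPKM in wt/fl and fl/fl. The Src-family kinase Blk was at 102 and 101 FPKM, and Tec, a relative of Btk, at 72.0 and 93.3 FPKM (log2 ratio 0.37). Thus the Tec level, below that of Btk in wt/fl, was above it in fl/fl.

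None of the 7 other phosphatase genes was 1.5-fold apart. Their log2 ratios ran from −0.25 to 0.0052, 6 of them below 0. The median was −0.075, beside 0.0026 for all genes averaging 1 FPKM or more, so close to an equal number of all genes lay on each side of 0. Inpp5d, which encodes SHIP-1, was at 60.9 and 54.5 FPKM in wt/fl and fl/fl, and the receptor phosphatase gene Ptprj at 57.3 and 54.3 FPKM.

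Adaptors, calcium release and the branches below Plcg2 held 47 of the 73 genes, and none of the 47 was 1.5-fold apart. The median log2 ratio was 0.033 for 19 adaptors and exchange factors, 0.029 for 13 genes of PI3 kinase and calcium release and 0.032 for 15 genes of the protein kinase C, CARMA1 and Ras branches. The scaffold Bank1 stood at 600.3 FPKM in haploinsufficient and 585 FPKM in deficient cells, Lat2 at 101 and 109 FPKM, and Dok3, an adaptor that restrains signaling, at 91.1 and 85.2 FPKM. The PI3 kinase subunits Pik3cd and Pik3cg were at 42.9 and 42.6 FPKM and at 32.8 and 36.3 FPKM, and the calcium release channel Itpr1 at 33.2 and 32.8 FPKM.

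In the branches below diacylglycerol, Rasgrp3, an activator of Ras, stood at 124 FPKM in haploinsufficient and 156 FPKM in deficient cells (log2 ratio 0.33), and the protein kinase C gene Prkcb at 122 and 123 FPKM. Bcl10, of the complex that leads to NF-kB, was at 93.0 and 109 FPKM, whereas its partner Malt1 was at 74.9 and 57.2 FPKM (log2 ratio −0.39), a gene singled out after its values were seen.

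**Figure D4:**
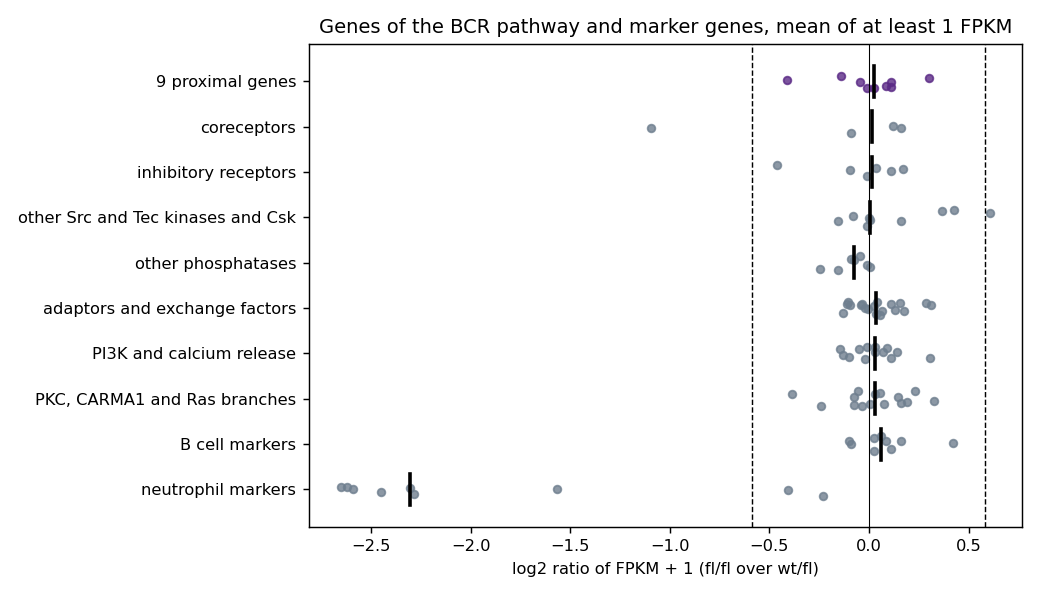
Log2 ratio of FPKM + 1 (fl/fl over wt/fl) of single genes averaging 1 FPKM or more in the 9 proximal genes, 7 further pathway lists and 2 marker lists, with a black bar at each median and dashed lines at 1.5-fold. The medians of the pathway lists lie between −0.075 and 0.033, and that of the neutrophil markers is −2.31.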

How the data were processed

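RNA of sorted follicular B cells was amplified (Ovation RNA-Seq system V2) and sequenced by the authors. The submitters' processing notes name Bowtie, TopHat and Cufflinks, with versions and options not given in the sources used here. The authors' deposited table holds FPKM pooled over the 3 samples of a genotype, called HET and KO, which were matched to the wt/fl and fl/fl labels. Its columns of fold change, test statistic, p-value, q-value and significance hold the authors' own comparison and were not used. The notes name mm10 and GRCm38, but 118 entries lie on sequences with the _random names of mm9, and 12.8% of 18793 genes overlapped their RefSeq GRCm38.p6 position. Positions of entries are given as listed, on mm9, and those of sequences on GRCm38. The 2 were never converted.

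The planned limma test needs a value per sample and was not run. FPKM was summed per gene name, and log2 ratios were taken with a pseudocount of 1. Genes averaging 1 FPKM or more were counted at 1.5-fold. Simulated tables with known folds, without noise, checked the arithmetic of the sums and calls alone. They held genes averaging 10 FPKM or more and say nothing about noisy or low values. Members and lists were chosen with earlier results of these data known. The lists were those of the BCR pathway (coreceptors, inhibitory receptors, other kinases, other phosphatases, adaptors, PI3 kinase and calcium release, protein kinase C, CARMA1 and Ras branches) and markers of B cells, neutrophils, macrophages, T cells, NK cells, dendritic cells, erythroid cells, platelets and plasma cells. The named genes were the 9 members, Myh9, the 3 most abundant genes of each pathway list with any 1.5-fold apart, and the 2 most abundant of each marker list, and a few items this rule takes in are not reported here. Mpo, Elane, Cxcr2, Csf3r, Igj and Sdc1 were named after their values were seen. Genes most like a member in pattern were not sought, since 2 pooled values give a single ratio. Variable coding stretches came from GENCODE M21 coding sequences linked to curated RefSeq transcripts. The ITAM search asked for paired tyrosine motifs 6 to 8 residues apart. No protein sequence table was used. Alternatives were pseudocounts of 0.1 and 0.5, no filter or a mean of at least 5 FPKM, calls at 25% above the lower value and at 2-fold, upper quartile scaling, and the most abundant entry of each gene. Python 3.11.15, pandas 2.3.3, numpy 2.4.6, Biopython 1.88 and matplotlib 3.10.9 were used.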

Additional observations from a re-analysis of the deposited data

How the results depend on the processing

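No paired analysis was possible because the deposited values are pooled over the 3 samples of a genotype, and for the same reason no replicate was left out. Calls at 25% above the lower value gave 1 of the 9 genes (Syk) in place of 0, and 7 of the 73 other pathway genes in place of 2, beside 10.1% of all genes. Calls at 2-fold gave 1 of the other pathway genes, Ifitm1, and a mean of at least 5 FPKM left 0. Taking the most abundant entry gave 3 of the 73 other pathway genes, beside 3.06% of all genes. Under the other alternatives the count over the 9 genes remained 0. The median log2 ratio of the 9 genes stayed between 0.0062 and 0.023. Filters and fold cuts cannot change the log2 ratio of a member or this median. Taking the most abundant entry cannot change a gene with 1 entry. Many of the 72 log2 ratios of single genes under alternatives were therefore fixed in advance. All 72 moved by less than 0.1 and kept their sign. The largest move was 0.087, for Lyn when its most abundant entry replaced the sum. Upper quartile scaling shifted the median of all genes by −0.015. Without replicate values, no difference described here can be set against the spread between mice.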
